A study of Rattus norvegicus with 12 samples.

Results

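Organic ion and drug transporters were examined in the renal cortex of lean, obese and SGLT2 inhibitor-treated obese rats. Members were the rows of the expression table whose symbol begins with Slc22a, Slco, Slc21a, Slc47a or Slc15a, with Slc16a, or with Abca, Abcb, Abcc or Abcg and a number. This pattern matched 83 of the 13151 genes, and Slc22a12 and Abcg2 were left out by the same rule, so 81 members remained. They were read in 3 classes set by family name: 31 uptake transporters (Slc22a, Slco, Slc21a, Slc15a), 13 Slc16a carriers that work in either direction, and 37 efflux transporters (Slc47a and the ABC families). The class is taken from the name, and several ABC members are known to move lipids or metals, or to sit in mitochondria, and are not drug pumps.

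The rats were males aged 32 weeks. ZL were untreated Zucker lean controls (n = 4), ZF were untreated Zucker fatty rats (n = 4), which the study's methods describe as lacking the leptin receptor, and ZF-SGLT2i were Zucker fatty rats (n = 4) that received 10 mg/kg canagliflozin daily in their food over the last 8 weeks, beginning at an age of 24 weeks. Every ZF-SGLT2i rat carried the fatty genotype, and no lean rat received the drug. The study's methods describe earlier kidney biopsies in its time-course experiment, the only one with lean rats. They describe none for the separately purchased rats of the drug experiment. A part of the biopsies in the differences between groups was not tested. The rats keep the numbers of the labels: ZL rats 1, 2, 3 and 4, ZF rats 2, 3, 4 and 5, and ZF-SGLT2i rats 2, 3, 4 and 6, and values are given below in that order. Between 8824980 and 12210257 reads per rat fell on genes, and 0.626% to 0.849% of them on the 81 members. Each value is a CPM, a read count scaled to a common library size with TMM factors, and is not divided by gene length, so levels are compared between rats and not between genes.

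Proximal tubule cells clear drugs, toxins and hormone conjugates from blood into urine in 2 steps. Organic anion and cation transporters of the Slc22a family take the compound up across the blood-facing membrane, and MATE and ABC proteins pass it out across the brush border. Oatp (Slco) and peptide (Slc15a) transporters take up larger anions, steroid conjugates and short peptides, and several of them are known in rodents to differ between the sexes and to follow sex steroids and growth hormone. Slc16a carriers move lactate, ketone bodies, amino acids or thyroid hormone along their gradients.

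The filter on low values (at least 1 in at least 4 rats) kept 73 members for testing, 28 uptake transporters, 12 Slc16a carriers and 33 efflux transporters. It removed Slc22a3, Slco1a5, Slco1b2, Slc16a8, Slc47a2, Abcc8, Abcc12 and Abcg8, and 67 members had a value of at least 1 in all 12 rats. Slc47a2, the second MATE protein, had 25 reads over the 12 rats, and Slc22a3, the organic cation transporter OCT3, had 52. In RefSeq (assembly GRCr8) 79 members matched by symbol. Slc21a4 matched as the older name of Slco1a3, the kidney-specific anion transporter OAT-K, and Slco1a2 is an older name of both Slco1a4 and Slco1a5, so its identity is uncertain. Slco1a5 was also a member under its own name, and Slco1a4 was not.

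The first comparison asked how the transporters of obese rats differ from those of lean rats. Uptake transporters were lower in ZF than in ZL rats on balance, by up to 11.4-fold in group mean (Slco1a1; 24.8-fold without ZF rat 2 and 6.69-fold without ZL rat 4), while efflux transporters were divided between small rises and small falls. In ZF against ZL, 30 of the 73 tested members (41.1%) passed an adjusted p under 0.05 (limma), against 18.8% of all 11633 genes tested. Of these, 20 fell and 10 rose, against 10.6% of all genes lower and 8.19% higher. Among uptake transporters 13 fell (Slc22a7 among them, which passed the filter only through the ZL rats), 4 rose and 11 did not pass, with a median log2 fold change of −0.43. Among Slc16a carriers 4 fell, 1 rose and 7 did not pass (median −0.20), and among efflux transporters 3 fell, 5 rose and 25 did not pass (median 0.03). The median over all genes tested was −0.01. The groups did not overlap in 19 of the 73 members (26%), against 19.0% of all genes. Without ZL rat 1, 17 transporters passed, and the genes that passed over the whole table dropped from 2185 to 1384. The tissue was whole cortex, so fewer cells of a type and less RNA per cell cannot be told apart.

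**Figure D1:**
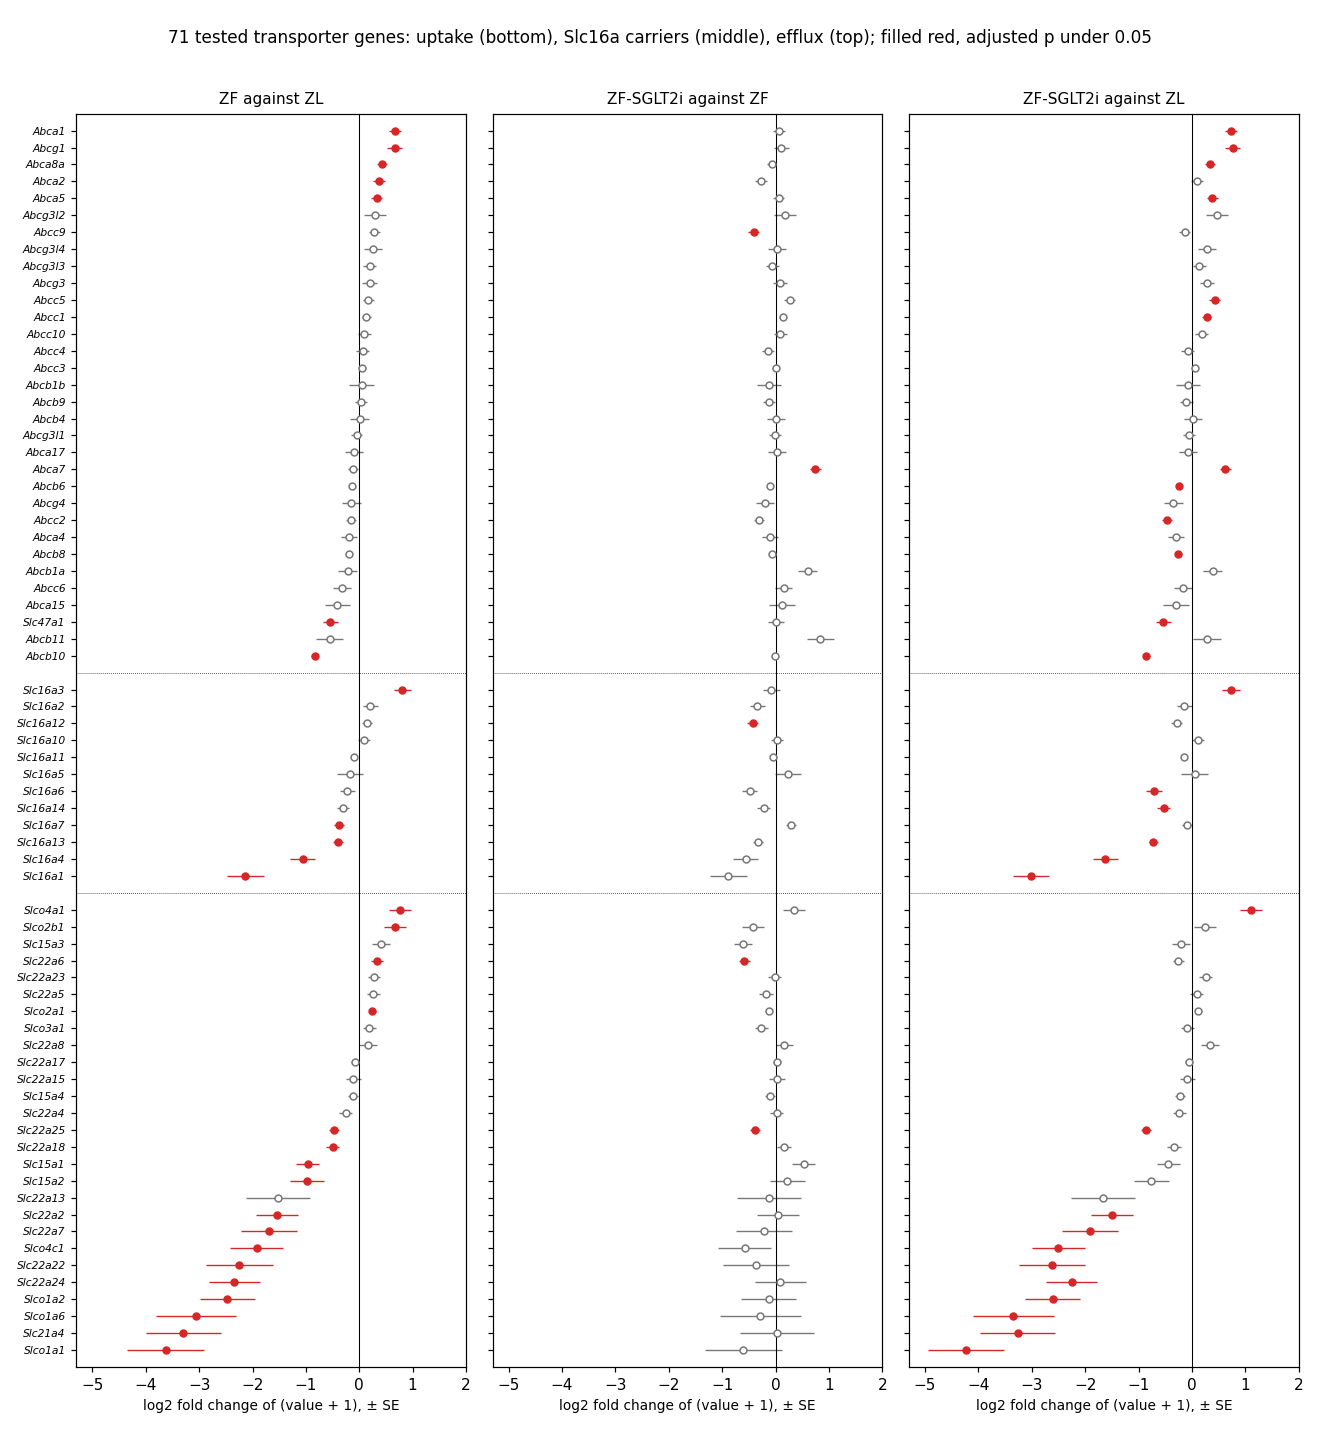
Each row is 1 of 71 tested transporter genes, and the x axis is the log2 fold change of (value + 1) with its standard error, for ZF compared with ZL (left), ZF-SGLT2i with ZF (middle) and ZF-SGLT2i with ZL (right), 4 rats in each group. Filled red points passed an adjusted p under 0.05: 29, 5 and 29 of the 71 drawn, and the longest shifts are those of uptake transporters below 0 in the left and right panels.

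The 5 largest falls among the uptake transporters were in Slco1a1, Slc21a4, Slco1a6, Slco1a2 and Slc22a24. Slco1a1 encodes Oatp1a1, a carrier of bile acids and steroid conjugates at the brush border of the rat proximal tubule. It stood at 125, 33.1, 49.0 and 261 in the ZL rats, at 27.0, 3.11, 10.2 and 0.874 in the ZF rats, and at 2.95, 3.33, 3.62 and 4.68 in the ZF-SGLT2i rats. Every ZF rat lay below every ZL rat, but ZF rat 2 at 27.0 came close to ZL rat 2 at 33.1, and the ZF-SGLT2i rats lay within the ZF range and close together. The log2 fold change was −3.63 ± 0.72 (SE, adjusted p = 0.0046), and the group means were 117 ± 104 and 10.3 ± 11.8 (SD, n = 4). The log2 fold change was −4.29 without ZF rat 2 and −2.99 without ZF rat 5, and Slco1a1 kept its call in both.

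Slc21a4 stood at 387, 103, 175 and 773 in ZL, at 95.7, 15.6, 50.2 and 6.23 in ZF, and at 21.9, 35.5, 27.5 and 26.0 in ZF-SGLT2i. The ZL and ZF groups were just apart, again because ZF rat 2 was high and ZL rat 2 low. Its log2 fold change in ZF against ZL was −3.29 ± 0.70 (adjusted p = 0.00661), and −3.89 without ZF rat 2 or −2.65 without ZF rat 5. Slco1a6, another Oatp of the rodent kidney, stood at 316, 68.8, 119 and 615 in ZL, at 97.6, 16.9, 35.2 and 4.26 in ZF, and at 14.4, 22.1, 19.4 and 20.2 in ZF-SGLT2i. Here ZF rat 2 lay above ZL rat 2, so the groups overlapped, and the log2 fold change was −3.06 ± 0.76 (adjusted p = 0.014), and −3.74 without ZF rat 2 or −2.33 without ZF rat 5. The gene listed as Slco1a2 fell by 2.48 ± 0.51 on the log2 scale (adjusted p = 0.0059), and its values ran from 7.11 to 40.4 in the lean rats, from 0.328 to 6.52 in ZF and from 1.43 to 1.62 in the treated rats. In the GRCr8 annotation Slco1a1, Slc21a4 (as Slco1a3) and Slco1a6 follow each other on chromosome 4 with no other coding gene between them, and they are close paralogs, so reads may have been divided among them in counting. Slco1a5, the next coding gene, was too low to test, at 0.867 to 6.34 in ZL and 0.1 to 0.575 in ZF.

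Slco4c1, which carries digoxin, thyroid hormone and uremic compounds across the blood-facing membrane, stood at 32.8, 6.94, 11.6 and 58.2 in ZL, at 9.40, 4.31, 4.19 and 2.41 in ZF, and at 2.67, 3.23, 3.02 and 2.12 in ZF-SGLT2i. ZF rat 2 lay above ZL rat 2, and the 4 ZF-SGLT2i rats lay below all ZL rats. The log2 fold change in ZF against ZL was −1.92 ± 0.50 (adjusted p = 0.0177). Without ZL rat 1 the adjusted p was 0.0581 and without ZF rat 5 it was 0.0519.

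Of the other Oatp members, 3 rose in ZF rats. Slco2a1, the prostaglandin transporter, stood at 70.4, 58.1, 59.1 and 64.5 in ZL, at 78.6, 73.5, 71.4 and 75.8 in ZF, and at 68.9, 74.1, 67.4 and 63.3 in ZF-SGLT2i. All ZF rats lay above all ZL rats by a narrow gap, and the log2 fold change was 0.25 ± 0.07 (adjusted p = 0.0255). That call was lost without ZL rat 2 (0.0616), ZL rat 3 (0.0657), ZF rat 2 (0.0745), ZF rat 3 (0.0518) or ZF rat 5 (0.0557). Slco2b1, a carrier of steroid sulfates, and Slco4a1, a carrier of thyroid hormone, were named after their values were seen: their log2 fold changes were 0.67 and 0.76, with adjusted p of 0.0348 and 0.0207. Slco4a1 had 11 to 26 reads in the ZL rats, and its call was lost without ZL rat 1 (0.0657) or ZF rat 2 (0.0611). The call of Slco2b1 was lost when any of ZL rats 1, 2 and 3 and ZF rats 2, 3 and 4 was left out, with adjusted p of up to 0.0909.

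Among the organic anion transporters of the Slc22a family, the 2 main carriers of the blood-facing membrane did not fall. Slc22a6 (OAT1) stood at 722, 707, 726 and 525 in ZL, at 759, 838, 910 and 845 in ZF, and at 609, 567, 558 and 499 in ZF-SGLT2i. The ZF rats lay above all ZL and all ZF-SGLT2i rats, and ZL rat 4 stood apart below the other ZL rats. Slc22a6 rose by 0.33 ± 0.10 in ZF against ZL (adjusted p = 0.0402). It did not keep that call without ZL rat 1 (0.0523), ZL rat 4 (0.0802, log2 fold change 0.22), ZF rat 3 (0.0862), ZF rat 4 (0.0798), ZF rat 5 (0.0789), ZF-SGLT2i rat 3 (0.056) or ZF-SGLT2i rat 4 (0.0518). Slc22a8 (OAT3), its neighbour on chromosome 1, stood at 824, 836, 878 and 484 in ZL, at 704, 891, 951 and 777 in ZF, and at 1013, 958, 978 and 776 in ZF-SGLT2i. The groups overlapped, and the log2 fold change of ZF against ZL was 0.16 ± 0.17 (adjusted p = 0.54).

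**Figure D2:**
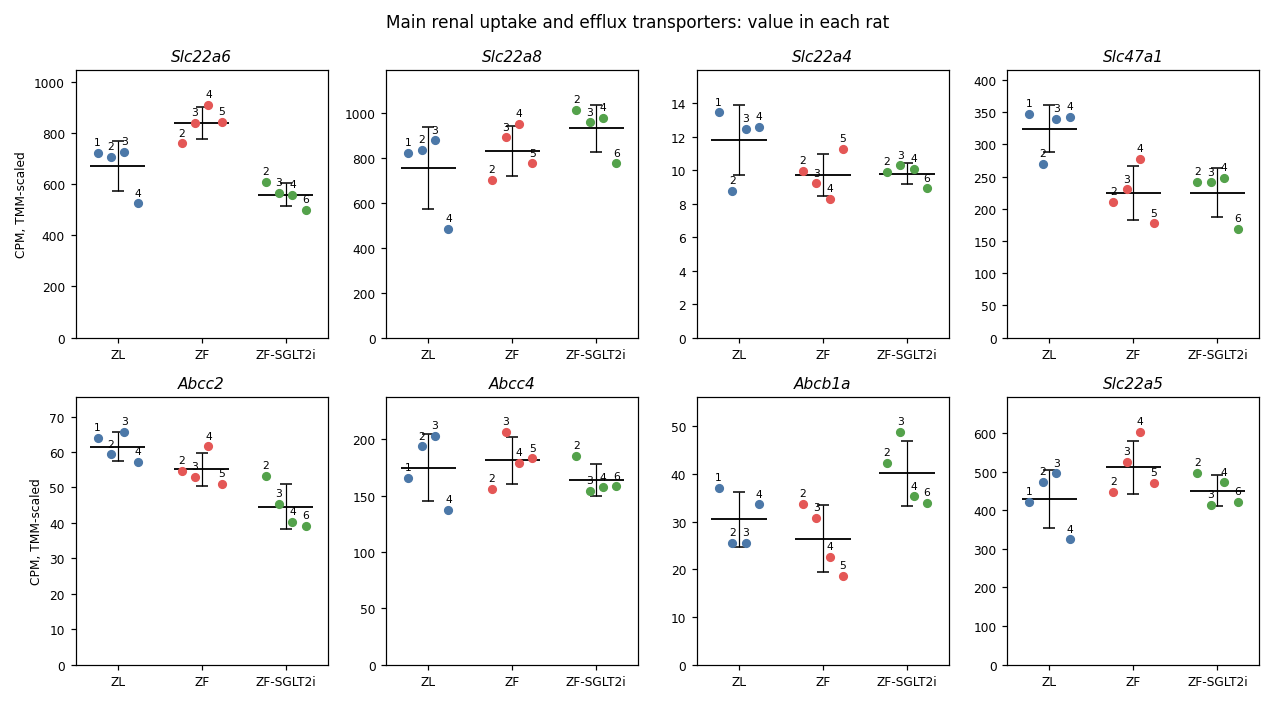
Values per rat (y axis, CPM with TMM scaling, from 0) of 8 renal uptake and efflux transporters in ZL, ZF and ZF-SGLT2i rats, with the rat number beside each point, the mean as a line and the SD as a bar. Slc22a6 is highest in the 4 ZF rats (759 to 910), Slc47a1 lies lower in ZF and ZF-SGLT2i rats than in most ZL rats, and Slc22a8 and Abcc4 overlap in all groups.

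Other members of the anion branch fell. Slc22a24, a carrier of steroid conjugates, stood at 29.3, 7.20, 14.1 and 60.0 in ZL, at 7.38, 2.61, 2.99 and 1.86 in ZF, and at 3.43, 3.53, 3.92 and 3.46 in ZF-SGLT2i. ZF rat 2 lay just above ZL rat 2, and the log2 fold change was −2.34 ± 0.48 (adjusted p = 0.0053). Slc22a22, known as the prostaglandin-specific organic anion transporter, stood at 60.9, 21.3, 34.5 and 116 in ZL, at 29.8, 5.51, 16.7 and 2.19 in ZF, and at 5.43, 12.9, 6.64 and 4.90 in ZF-SGLT2i, with a log2 fold change of −2.25 ± 0.62 (adjusted p = 0.024). ZF rat 2 again lay within the ZL range. The call of Slc22a22 was lost without ZL rat 1 (0.0638), ZL rat 4 (0.06), ZF rat 3 (0.0722) or ZF rat 5 (0.062).

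Slc22a7 (OAT2) was scarce, with 13 to 160 reads per ZL rat, 0 to 27 per ZF rat and 3 in each ZF-SGLT2i rat. Its values were 5.56, 1.3, 1.47 and 14.3 in ZL, 2.59, 0.1, 0.342 and 0 in ZF, and 0.286, 0.303, 0.302 and 0.334 in ZF-SGLT2i, and ZF rat 2 lay above ZL rats 2 and 3. All 4 ZL rats reached 1, the limit of the filter, but only 1 of the 4 ZF rats and 0 of the 4 ZF-SGLT2i rats did. Slc22a7 was thus tested only because it was high in ZL, and its call is no support for a fall. Without it, 12 uptake transporters fell in ZF against ZL. The log2 fold change was −1.69 ± 0.53 (adjusted p = 0.0389), and 8 of the settings that left out a rat ended the call, with an adjusted p of 0.102 without ZL rat 1, 0.0836 without ZL rat 4, 0.104 without ZF rat 3, 0.0664 without ZF rat 4, 0.1 without ZF rat 5, and 0.051, 0.0531 and 0.0506 without ZF-SGLT2i rats 2, 3 and 4.

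Slc22a25 stood at 172, 137, 183 and 181 in ZL, at 114, 110, 132 and 123 in ZF, and at 97.5, 89.9, 96.5 and 82.5 in ZF-SGLT2i. The 3 groups formed steps that did not overlap. It fell by 0.48 ± 0.09 in ZF against ZL (adjusted p = 0.00394), a call that held in all 22 alternatives run. Its annotated span overlaps those of Slc22a8 and Slc22a6 in GRCr8, and whether strand was used in counting is not given in the sources used here, so reads of these 3 genes may have been mixed. Slc22a18 (log2 fold change −0.50, adjusted p = 0.0161), whose substrates are poorly known, completed the Slc22a members that fell besides Slc22a2, and was named after its values were seen.

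Of the organic cation transporters, Slc22a2 (OCT2), the basolateral entry route of metformin and creatinine, stood at 484, 177, 259 and 840 in ZL, at 196, 101, 165 and 79.4 in ZF, and at 112, 155, 147 and 114 in ZF-SGLT2i. ZF rat 2 lay above ZL rat 2, and no ZF-SGLT2i rat reached the ZL range. The log2 fold change in ZF against ZL was −1.54 ± 0.39 (adjusted p = 0.0165), with an exact permutation p of 0.0571 (two-sided, 70 assignments, smallest possible 0.0286). The adjusted p was 0.0522 without ZL rat 1 and 0.0519 without ZF rat 3. The carnitine transporters did not pass: Slc22a5 (OCTN2) had group means of 429 ± 76.0 in ZL and 512 ± 68.5 in ZF (adjusted p = 0.162), and Slc22a4 (OCTN1) of 11.8 ± 2.09 and 9.69 ± 1.25 (adjusted p = 0.177).

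The peptide transporters Slc15a1 (PEPT1) and Slc15a2 (PEPT2) recover di- and tripeptides and beta-lactam antibiotics at the brush border. Slc15a1 stood at 43.5, 47.9, 53.7 and 23.9 in ZL, at 16.0, 24.2, 25.9 and 16.8 in ZF, and at 32.8, 31.6, 29.9 and 24.9 in ZF-SGLT2i. ZL rat 4, the highest ZL rat for the 5 Oatp genes that fell, was here the lowest, and ZF rats 3 and 4 lay above it. The log2 fold change was −0.96 ± 0.22 (adjusted p = 0.00857, exact permutation p = 0.0857). Slc15a2 stood at 204, 91.1, 132 and 379 in ZL, at 130, 71.7, 91.0 and 71.2 in ZF, and at 102, 105, 104 and 101 in ZF-SGLT2i. Its log2 fold change was −0.98 ± 0.32 with an adjusted p of 0.0491, and 14 of 22 alternatives ended that call, the omission of ZL rat 1 (0.118), ZL rat 4 (0.0892), ZF rat 3 (0.125), ZF rat 4 (0.0683), ZF rat 5 (0.117) or any ZF-SGLT2i rat (0.0613 to 0.065) among them. Leaving out ZL rat 4 brought the log2 fold change to −0.61. Slc15a3 and Slc15a4, the lysosomal members, did not pass.

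**Figure D3:**
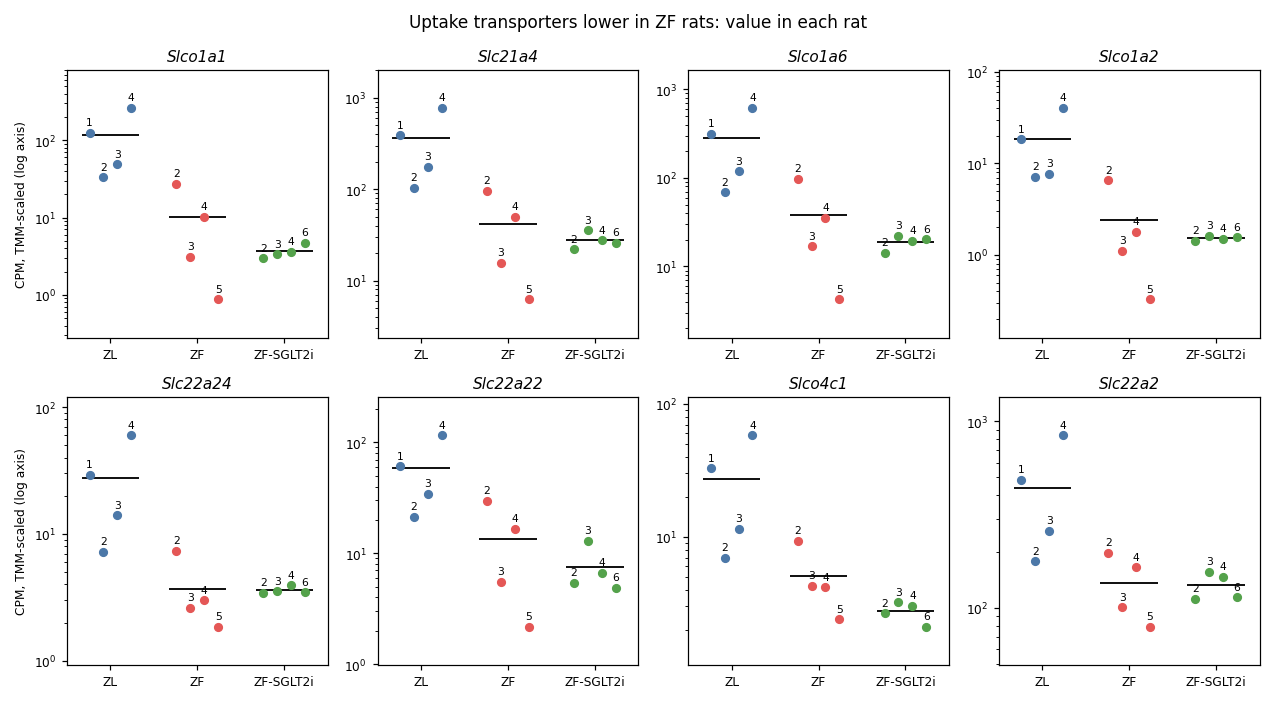
Values per rat (y axis, CPM with TMM scaling, log axis) of 8 uptake transporters that passed the test as lower in ZF than in ZL rats, with rat numbers beside the points and the arithmetic mean as a line. ZL rat 4 is the highest and ZL rat 2 the lowest ZL rat, and ZF rat 2 the highest and ZF rat 5 the lowest ZF rat, in all 8 panels, and the ZF-SGLT2i rats span a smaller range than the ZF rats.

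Most of the uptake transporters that fell shared their order of rats. Of the 13, ZL rat 4 was the highest ZL rat in 10 and ZL rat 2 the lowest in 11, and ZF rat 2 was the highest ZF rat in 10 and ZF rat 5 the lowest in 11. The full order of Slco1a1, with ZL rats 4, 1, 3, 2 and ZF rats 2, 4, 3, 5 from high to low, was found in 9 of the 13: Slco1a1, Slc21a4, Slco1a6, Slco1a2, Slc22a24, Slc22a22, Slc22a2, Slc22a7 and Slc15a2, or 8 without Slc22a7, which passed the filter only through the ZL rats. None of the other 60 tested members had it, and 1.57% of all genes tested (183) did. Slco1a1 has this order by definition, and reads may have been divided among it and its paralogs Slc21a4 and Slco1a6. The 13 were themselves called from these same rats. This order was noticed after the values were seen, the genes share their libraries, and no test was made of it. ZL rat 4 was not low or high in every member: it was the lowest ZL rat in 26 of the 73 tested members and the highest in 26.

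Of the genes outside the transporter families that were listed as regulators, partners or cell type markers, Slc7a13, Prlr, Esr1, Umod and Havcr1 had the same order of rats. Slc7a13, an amino acid transporter of the straight proximal tubule, stood at 838, 140, 244 and 1896 in ZL, at 148, 21.4, 36.0 and 6.12 in ZF, and at 14.1, 19.3, 22.3 and 14.4 in ZF-SGLT2i. Its log2 fold change in ZF against ZL was −3.98 ± 0.83 (adjusted p = 0.00601). Prlr, the prolactin receptor, stood at 113, 45.0, 67.6 and 192 in ZL, at 58.4, 33.5, 44.5 and 32.0 in ZF, and at 27.6, 30.8, 31.9 and 21.6 in ZF-SGLT2i, and its ZF and ZL ranges overlapped. The part of either gene, or of the cells that carry them, in the transporter falls was not tested.

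The Slc16a carriers included the monocarboxylate transporter with the lowest ZF values relative to ZL. Slc16a1 (MCT1), which moves lactate, pyruvate and ketone bodies, stood at 98.5, 119, 132 and 45.1 in ZL, at 17.2, 19.0, 40.5 and 12.1 in ZF, and at 10.4, 11.5, 12.4 and 8.03 in ZF-SGLT2i. The groups did not overlap, with ZF rat 4 just under ZL rat 4. The group mean was 4.44-fold lower in ZF than in ZL, the log2 fold change was −2.13 ± 0.34 (adjusted p = 0.00135), and the call held in all 22 alternatives. Slc16a4, an orphan carrier, stood at 152, 91.3, 137 and 211 in ZL, at 73.9, 59.2, 92.4 and 50.8 in ZF, and at 50.3, 47.5, 53.0 and 33.1 in ZF-SGLT2i. Only ZF rat 4 reached the ZL range, and the log2 fold change was −1.06 ± 0.23 (adjusted p = 0.00774), a call that also held in all 22 alternatives.

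Slc16a7 (MCT2) and Slc16a13 fell by smaller amounts. Slc16a7 stood at 246, 274, 225 and 208 in ZL, at 162, 201, 166 and 204 in ZF, and at 216, 201, 242 and 235 in ZF-SGLT2i, with a log2 fold change of −0.38 ± 0.10 in ZF against ZL (adjusted p = 0.0179). Its ZL and ZF groups were apart by a narrow gap, and the call was lost without ZL rat 1 (0.0522) or ZF rat 2 (0.0584). Quantile normalization, an alternative scaling, also ended the call (adjusted p = 0.0815, log2 fold change −0.27). Slc16a13 stood at 90.0, 79.0, 86.2 and 71.0 in ZL, at 56.8, 68.3, 68.1 and 54.1 in ZF, and at 53.0, 48.9, 46.0 and 47.8 in ZF-SGLT2i. The 3 groups lay in steps without overlap, and the log2 fold change in ZF against ZL was −0.40 ± 0.09 (adjusted p = 0.01). Its annotated span overlaps that of Slc16a11, which did not pass.

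Slc16a3 (MCT4), the lactate exporter of glycolytic cells, was the carrier that rose. It stood at 2.96, 3.64, 3.74 and 2.14 in ZL, at 4.79, 5.71, 6.41 and 7.98 in ZF, and at 5.52, 5.45, 7.24 and 5.02 in ZF-SGLT2i, from 24 to 75 reads per rat in ZL and ZF. All ZF rats lay above all ZL rats, and the log2 fold change was 0.81 ± 0.17 (adjusted p = 0.0054). Slc16a10, which carries aromatic amino acids, overlapped in all groups, with means of 69.9 ± 8.29, 74.2 ± 9.67 and 75.3 ± 9.38 (SD) in ZL, ZF and ZF-SGLT2i.

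**Figure D4:**
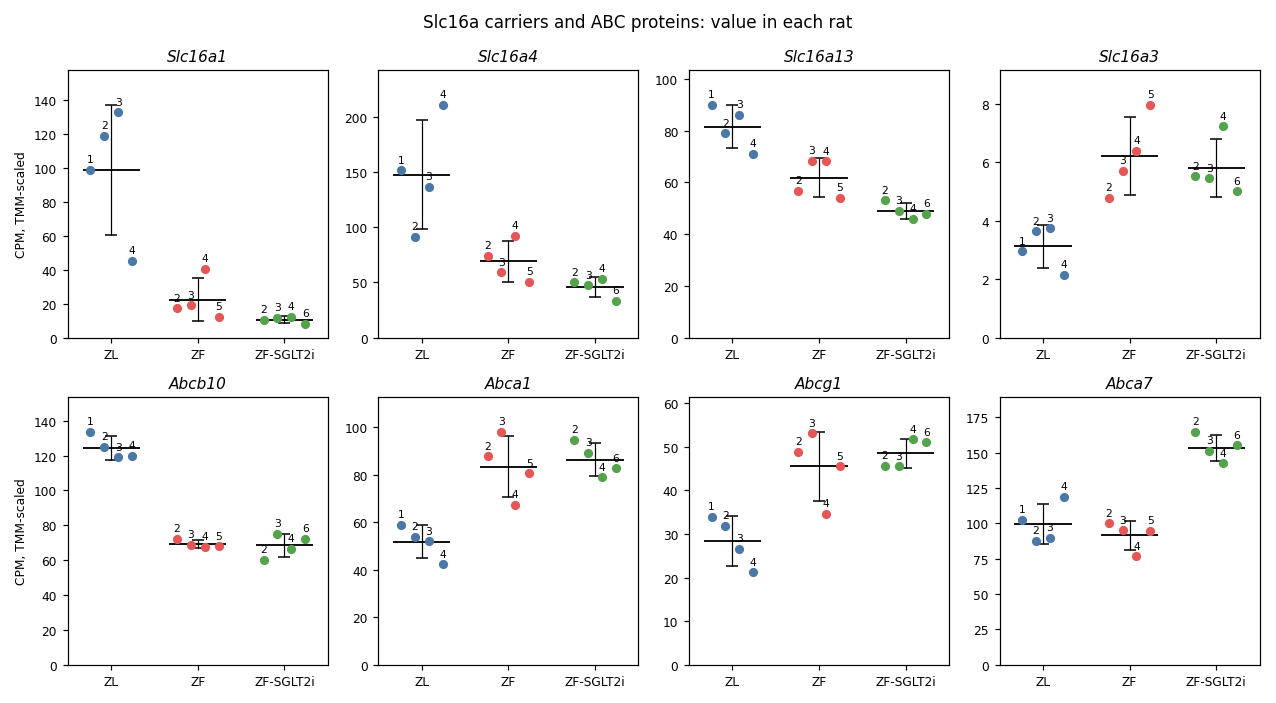
Values per rat (y axis, CPM with TMM scaling, from 0) of 4 Slc16a carriers and 4 ABC proteins in ZL, ZF and ZF-SGLT2i rats, with rat numbers, the mean as a line and the SD as a bar. Slc16a1 and Abcb10 are lower and Abca1, Abcg1 and Slc16a3 higher in every ZF and ZF-SGLT2i rat than in every ZL rat, and Abca7 is higher in the ZF-SGLT2i rats only (142 to 165).

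Among the drug exporters of the efflux class, Slc47a1 fell in ZF against ZL and the Abcc and P-glycoprotein genes did not pass. Slc47a1 (MATE1), which passes organic cations such as metformin into urine, stood at 347, 270, 340 and 343 in ZL, at 211, 230, 278 and 178 in ZF, and at 242, 241, 248 and 169 in ZF-SGLT2i. ZF rat 4 at 278 lay above ZL rat 2 at 270, and otherwise the groups were apart. It fell by 0.54 ± 0.14 in ZF against ZL (adjusted p = 0.0191, exact permutation p = 0.0571), a call lost without ZL rat 1 (0.0558), ZF rat 2 (0.051) or ZF rat 5 (0.0546). Of the 8 tested Abcc members 0 passed in ZF against ZL by limma, edgeR or DESeq2, and 1 (Abcc9) had an unadjusted p under 0.05, against 33.1% of all genes tested. Abcc2 (MRP2) stood at 64.1, 59.3, 65.7 and 57.2 in ZL and at 54.7, 53.0, 61.6 and 51.0 in ZF (adjusted p = 0.255). Abcc4 (MRP4), the apical exporter of organic anions and cyclic nucleotides, had means of 175 ± 29.7 and 181 ± 20.7 (adjusted p = 0.757), and Abcc3, a basolateral exporter, of 27.7 ± 1.65 and 28.8 ± 1.53 (adjusted p = 0.633). The P-glycoprotein genes Abcb1a and Abcb1b had log2 fold changes of −0.21 ± 0.18 and 0.04 ± 0.23 and did not pass (adjusted p of 0.442 and 0.923). Abcb1b rested on 26 to 68 reads per rat.

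The ABC members that rose in ZF rats are known for lipid transport. Abca1, the cholesterol and phospholipid exporter that loads apolipoprotein A-I, stood at 59.0, 53.8, 51.9 and 42.3 in ZL, at 87.7, 98.0, 67.4 and 80.6 in ZF, and at 94.6, 89.1, 79.0 and 82.7 in ZF-SGLT2i. Abcg1, which hands cholesterol to HDL, stood at 34.0, 31.9, 26.6 and 21.3 in ZL, at 48.8, 53.1, 34.6 and 45.6 in ZF, and at 45.7, 45.5, 51.7 and 51.1 in ZF-SGLT2i. In both genes every ZF and ZF-SGLT2i rat lay above every ZL rat, with ZF rat 4 the lowest. Abca1 rose by 0.67 ± 0.11 (adjusted p = 0.00193) and Abcg1 by 0.66 ± 0.14 (adjusted p = 0.00673), and both calls held in all 22 alternatives.

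Abca8a, another lipid transporter, stood at 84.9, 84.3, 71.7 and 71.4 in ZL, at 115, 102, 115 and 87.6 in ZF, and at 98.2, 98.1, 92.2 and 108 in ZF-SGLT2i. Its groups were apart, the log2 fold change was 0.42 ± 0.09 (adjusted p = 0.00789), and the call held in all 22 alternatives. Abca2, a lysosomal lipid transporter, stood at 786, 990, 887 and 649 in ZL and at 930, 1134, 1075 and 1099 in ZF, with ZF rat 2 inside the ZL range and a log2 fold change of 0.37 ± 0.11 (adjusted p = 0.0337). That call was lost without ZL rat 1 (0.0864), ZL rat 4 (0.0725), ZF rat 3 (0.094), ZF rat 4 (0.0532) or ZF rat 5 (0.0763). Abca5 rose by 0.33 ± 0.10 (adjusted p = 0.0407) from 10.8 to 13.4 in ZL to 14.1 to 16.7 in ZF. It lost its call when any of ZL rats 1, 3 and 4 or any ZF rat was left out, with adjusted p of 0.0502 to 0.109.

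The mitochondrial ABC protein Abcb10 fell. Abcb10, of the inner mitochondrial membrane and linked to heme synthesis, stood at 134, 125, 119 and 120 in ZL, at 72.3, 68.8, 67.7 and 68.0 in ZF, and at 60.3, 75.0, 66.6 and 72.3 in ZF-SGLT2i. The rats of a group lay close together and the ZL group stood well apart, with a group mean 1.80-fold lower in ZF and a log2 fold change of −0.84 ± 0.07 (adjusted p = 1.1e-05). This was the smallest adjusted p of any member in ZF against ZL, and the call held in all 22 alternatives.

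The second comparison asked what canagliflozin did in obese rats. Few transporters passed, and the main anion carrier Slc22a6 was lower and the lipid transporter Abca7 higher. In ZF-SGLT2i against ZF, 5 of 73 members (6.85%) passed, against 3.15% of all genes tested. Of them 4 fell, against 1.75% of all genes lower, and 1 rose, against 1.39% of all genes higher. The count was 2 without any of ZL rat 1, ZF rats 3 or 4 and ZF-SGLT2i rats 3, 4 or 6, and 3 without ZF rat 2. Uptake transporters gave 2 falls, Slc16a carriers 1 fall, and efflux transporters 1 fall and 1 rise. The median log2 fold change of the 73 was −0.05, against 0.01 over all genes. The ZF rats serve in this comparison and in that of ZF against ZL, so their values enter both.

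Slc22a6 fell by 0.59 ± 0.10 (adjusted p = 0.00843, exact permutation p = 0.0286, the smallest possible). Its ZF-SGLT2i rats, at 499 to 609, all lay below the ZF rats, at 759 to 910, and overlapped the ZL rats. Slc22a25 fell by 0.38 ± 0.09 (adjusted p = 0.0371), a call that the omission of ZL rat 1, any ZF rat or any ZF-SGLT2i rat ended, with adjusted p of 0.0539 to 0.116. Slc16a12, a creatine carrier, stood at 241, 275, 309 and 252 in ZF and at 231, 180, 212 and 177 in ZF-SGLT2i, just apart. It fell by 0.43 ± 0.10 (adjusted p = 0.0347) and lost the call without ZL rat 1 (0.0523), ZF rat 3 (0.0955), ZF rat 4 (0.104), ZF-SGLT2i rat 3 (0.116), ZF-SGLT2i rat 4 (0.062) or ZF-SGLT2i rat 6 (0.11).

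Abca7, a lipid transporter known from phagocytes and brain, stood at 102, 87.7, 90.0 and 119 in ZL, at 100, 95.1, 76.7 and 94.6 in ZF, and at 165, 151, 142 and 155 in ZF-SGLT2i. The treated rats lay above all untreated rats, lean or obese, and the untreated groups overlapped. It rose by 0.74 ± 0.10 against ZF (adjusted p = 0.00118), a 1.67-fold higher mean, and this call held in all 22 alternatives. Abcc9, the SUR2 subunit of the potassium channel of smooth muscle and pericytes and not a drug pump, stood at 62.2, 51.4, 55.0 and 48.1 in ZF and at 38.3, 38.8, 40.8 and 43.5 in ZF-SGLT2i. Abcc9 fell by 0.41 ± 0.10 (adjusted p = 0.0414). Its call was lost without ZL rat 1, ZL rat 2, ZF rats 2, 3 or 4, or any ZF-SGLT2i rat, with adjusted p of 0.0523 to 0.123. Of the 4 fibroblast markers listed, Col3a1 and Dcn fell in the same comparison, by 1.03 and 1.11 on the log2 scale (adjusted p of 0.00553 and 0.00827), and Col1a1 and Pdgfra did not pass (50% of the list called, against 3.15% of all genes). The part of fibroblast or perivascular cells in the Abcc9 value was not tested.

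The transporters that were low in ZF rats were not higher after treatment by this test. For Slco1a1 the log2 fold change of ZF-SGLT2i against ZF was −0.61 ± 0.72 (adjusted p = 0.722), for Slc21a4 0.03 ± 0.70 (adjusted p = 0.988), for Slc22a2 0.04 ± 0.39 (adjusted p = 0.973) and for Slc47a1 0.01 ± 0.14 (adjusted p = 0.985). With such standard errors the Oatp values leave room for changes of either sign. The error comes from the spread of all 12 rats in 1 fit, and Slco1a1 ranged from 33.1 to 261 in ZL, from 0.874 to 27.0 in ZF and from 2.95 to 4.68 in ZF-SGLT2i. Slc16a1 had a log2 fold change of −0.88 ± 0.34 (adjusted p = 0.193), and all but ZF rat 5 among the ZF rats lay above the treated range. Slc15a1 had a log2 fold change of 0.53 ± 0.22 (adjusted p = 0.219), and ZF rat 4 at 25.9 lay above ZF-SGLT2i rat 6 at 24.9. Abcb1a stood at 33.7, 30.8, 22.6 and 18.7 in ZF and at 42.3, 48.8, 35.3 and 33.9 in ZF-SGLT2i, just apart, and did not pass, at 0.60 ± 0.18 on the log2 scale (adjusted p = 0.0905).

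The third comparison set treated obese rats beside lean rats. In ZF-SGLT2i against ZL, 30 of 73 members (41.1%) passed, against 27.4% of all genes tested, 21 lower (15.0% of all genes) and 9 higher (12.4% of all genes). Uptake transporters gave 10 falls and 1 rise, Slc16a carriers 5 falls and 1 rise, and efflux transporters 6 falls and 7 rises. The groups were apart in 32 of 73 members (43.8%), against 28.0% of all genes. These values share the ZL rats with ZF against ZL and are given here for Slco1a1 and Slc16a1 and for members with little said so far. Slc22a7, one of the 10 uptake falls, passed the filter only through the ZL rats.

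Slco1a1 fell by 4.23 ± 0.72 on the log2 scale (adjusted p = 0.000978) and Slc16a1 by 3.01 ± 0.34 (adjusted p = 5.64e-05), and in both genes every treated rat lay below every lean rat. Slc16a6, a carrier of ketone bodies and taurine, stood at 31.9, 33.6, 42.1 and 21.4 in ZL, at 24.7, 28.5, 26.2 and 27.8 in ZF, and at 17.4, 18.8, 19.9 and 19.3 in ZF-SGLT2i. The treated rats lay below all other rats, and it fell by 0.71 ± 0.15 against ZL (adjusted p = 0.00336). Slc16a14, an orphan carrier, fell by 0.53 ± 0.12 (adjusted p = 0.00576), with ZL rat 3 at 214 above the other ZL rats at 156 to 160 and the treated rats at 101 to 131. Abcc2 fell by 0.47 ± 0.09 (adjusted p = 0.00257), from a mean of 61.5 ± 3.98 to 44.5 ± 6.37, and the groups did not overlap. Abcc5 (MRP5), an exporter of cyclic nucleotides, rose by 0.43 ± 0.10 (adjusted p = 0.00725), from 21.6 to 26.4 in ZL to 26.9 to 35.3 in ZF-SGLT2i. Of the further mitochondrial members, Abcb6 and Abcb8 fell by 0.24 and 0.26 (adjusted p of 0.00658 and 0.0113), and Abcc1, the MRP1 exporter, rose by 0.28 (adjusted p = 0.0186). These 3 were named after their values were seen, and the call of Abcc1 was lost without ZL rat 1 (0.05), ZF-SGLT2i rat 3 (0.0508) or ZF-SGLT2i rat 6 (0.0638).

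Promoters were searched for letters known from regulators of these families, in the RefSeq windows of 250 bases before to 50 bases after the gene start (GRCr8), which were found for 63 members. The antioxidant element TGACNNNGC, on either strand, was in 9 of the 63 (14.3%), against 12.1% of all 33469 promoters, so its share lay near the background. The DR1 and DR4 repeats of nuclear receptors and the palindromic steroid element were in no member and in 0.0538%, 0.00598% and 0.439% of all promoters. An absent match says only that these letters are not in the window. The stretches before the gene start of the 3 members that fell in ZF against ZL and held the antioxidant letters are shown because they let the match be seen in its context, in the direction of the gene and with the matched letters in capitals. They come from chr2:194812412-194812470 on the plus strand for Slc16a1, chr15:104949551-104949594 on the minus strand for Slc15a1 and chr9:104676494-104676552 on the minus strand for Slco4c1.
Slc16a1: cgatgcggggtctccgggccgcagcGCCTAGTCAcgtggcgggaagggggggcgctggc
Slc15a1: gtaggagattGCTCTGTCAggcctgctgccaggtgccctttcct
Slco4c1: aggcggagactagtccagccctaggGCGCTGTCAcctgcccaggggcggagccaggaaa
The 3 matches shown read on the opposite strand to the gene. Slco4c1 held a second match, TGACCATGC, which begins 21 bases after the gene start and reads in the direction of the gene. The promoter windows of Slco1a1, Slc21a4 and Slco1a6, which moved together, aligned with 155 to 161 identical bases of 300, and Slc22a2, from another family, aligned with these 3 at 144 to 165.

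Nuclear receptors, hormone receptors and other regulators of transporter genes were read from a list of 19, all tested. In ZF against ZL 1 rose and 5 fell, or 31.6% of the list against 18.8% of all genes tested (8.19% higher and 10.6% lower), with a median log2 fold change of −0.16 against −0.01. Those described here are Ppara, Prlr, Esr1 and Hnf4g. Ppara, the fatty acid sensor that also drives carnitine and monocarboxylate carriers, stood at 44.9, 48.5, 50.1 and 36.7 in ZL and at 54.6, 68.0, 63.6 and 84.7 in ZF, apart, and rose by 0.57 ± 0.13 (adjusted p = 0.00857). Prlr fell by 1.12 ± 0.34 (adjusted p = 0.0334), the estrogen receptor Esr1 by 0.48 ± 0.14 (adjusted p = 0.0337) and Hnf4g by 0.58 ± 0.14 (adjusted p = 0.0141). Hnf4a, Nfe2l2, Nr1i2, Nr1h3 and Nr1h2 did not pass in this comparison. In ZF-SGLT2i against ZL 8 of the 19 passed (42.1%, against 27.4% of all genes). There 3 rose, Nr1i2 among them, and 5 fell, Hnf4a among them. In ZF-SGLT2i against ZF, Ppara rose again, by 0.64 ± 0.13 (adjusted p = 0.0162), to 90.3 to 118, and the vitamin D receptor Vdr rose by 1.09 ± 0.16 (adjusted p = 0.00264), and the other 17 did not pass (10.5% of the list called, against 3.15% of all genes).

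Partners of the transporters, such as scaffolds, the sodium pump and cooperating carriers, were read from a list of 20, of which 18 were tested. In ZF against ZL 4 fell and 1 rose, or 27.8% of those tested against 18.8% of all genes, with a median log2 fold change of −0.07 against −0.01. The scaffolds did not move together. Pdzk1 and Slc9a3r1, which anchor Oatp and other carriers at the brush border, fell by 0.41 ± 0.10 and 0.53 ± 0.13 (adjusted p of 0.0116 and 0.0112), while the related scaffold Slc9a3r2 rose by 0.41 ± 0.12 (adjusted p = 0.0281). The nucleoside carrier Slc29a3 fell by 0.65 ± 0.11 (adjusted p = 0.00187). The sodium pump subunit Atp1b1, the dicarboxylate carrier Slc13a3 that feeds OAT exchange, and Bsg, the chaperone of MCT1, did not pass. Slc51a, a subunit of the basolateral steroid and bile acid exporter, stood at 35.8, 29.6, 31.3 and 18.0 in ZL, at 17.9, 18.7, 21.5 and 16.6 in ZF, and at 40.4, 34.8, 48.2 and 42.8 in ZF-SGLT2i. It fell by 0.56 ± 0.17 in ZF against ZL (adjusted p = 0.034) with ZL rat 4 inside the ZF range. It rose by 1.11 ± 0.17 in ZF-SGLT2i against ZF (adjusted p = 0.00298), and the treated rats lay above all ZF rats. It was the 1 partner called in that comparison (5.56%, against 3.15% of all genes).

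Cell type markers were read beside these results. Of 10 proximal tubule markers, all detected, 5 fell in ZF against ZL (Slc7a13, Slc5a1, Miox, Gatm and Aqp1), Pck1 rose by 0.71 ± 0.21 (adjusted p = 0.0288), and Lrp2, Cubn, Slc34a1 and Slc5a2 did not pass (60% called, against 18.8% of all genes tested, 10.6% lower and 8.19% higher). Their summed level, with Lrp2 giving the most reads, was 25081 to 27495 in the ZL rats, 18757 to 24158 in the ZF rats and 17014 to 20855 in the ZF-SGLT2i rats. Of the injured tubule markers, 5 were tested and 4 rose in ZF rats (80%, against 8.19% of all genes), with Havcr1 at 1.56 to 1.88 in ZL and at 52.3, 14.6, 32.1 and 7.32 in ZF. The summed level of these 5, with Spp1 giving the most reads, ran from 206 to 228 in the lean rats, from 375 to 1605 in ZF and from 251 to 884 under treatment. ZF rat 2, the ZF rat with the highest injury sum, was also the ZF rat with the highest values of the 5 Oatp genes that fell. Among treated rats, ZF-SGLT2i rat 2 had the highest injury sum and the lowest values of Slco1a1, Slc21a4, Slco1a6 and Slco1a2. ZF-SGLT2i rat 6 was lowest for Slco4c1. The treated rats lay close together, with Slco1a1 at 2.95 to 4.68, so their order says little. These are single rats, and no link between injury and the Oatp genes was tested. In ZF-SGLT2i against ZF 1 of the 5 injury markers passed, Vcam1, which fell by 0.67 ± 0.16 (adjusted p = 0.0387), or 20% against 3.15% of all genes. Of 5 podocyte markers 3 rose in ZF against ZL (60%, against 8.19% of all genes), and their sum, with Podxl giving the most reads, was 1091 to 1457 in ZL and 1371 to 1755 in ZF. The part of tubule loss, injury or a shift in cell types in the transporter values was not tested. The summed value of the 31 uptake transporters, with Slc22a8 giving the most reads, ran from 3856 to 5656 in the lean rats, from 3358 to 4138 in ZF and from 3065 to 3681 under treatment. That of the 37 efflux transporters ran from 2118 to 2418, from 2344 to 2579 and from 2272 to 2328. Its group means were 2318, 2452 and 2307, of which the lipid transporter Abca2 alone gave 828, 1060 and 871. The efflux sum therefore follows Abca2 closely and is no measure of the drug exporters.

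Markers of other tissues were not uniformly low. Albumin (Alb), the defining marker of hepatocytes, which share several of these transporters, had a mean of 0.168 in ZL, and the T cell markers Cd3e and Cd3d had means of 0.346 and 0.284. Adipoq, the adipocyte hormone adiponectin, was detected, with means of 13.9, 11.0 and 14.3 in ZL, ZF and ZF-SGLT2i. Aqp4, a water channel listed for the inner medulla, had means of 59.8, 60.5 and 98.3, and Cyp2e1 of the liver list had means of 394, 233 and 424. The part of fat, medulla or other tissue in the transporter values was not tested. Of the liver list, Serpina1 rose by 1.00 ± 0.20 in ZF-SGLT2i against ZF (adjusted p = 0.0151), and Cyp2e1, which tubules also express, fell by 0.76 ± 0.14 in ZF against ZL and rose by 0.85 ± 0.14 in ZF-SGLT2i against ZF (adjusted p of 0.00267 and 0.00447). Collecting duct markers were present in all rats, and 1 of 6 (Scnn1g) rose in ZF against ZL (16.7%, against 8.19% of all genes) and 1 of 6 (Aqp2) in ZF-SGLT2i against ZF (16.7%, against 1.39%). Of the 4 fibroblast markers Col1a1 rose in ZF against ZL, by 0.61 ± 0.20 (adjusted p = 0.0435), or 25% against 8.19% of all genes higher. Macrophage markers gave 1 rise of 6 in ZF against ZL (Cd14, 16.7%, against 8.19% of all genes) and 0 calls in ZF-SGLT2i against ZF. No call was made in either comparison among 5 endothelial, 4 thick limb and distal tubule, 2 inner medulla, 1 adipocyte and 1 blood marker. Over all genes 18.8% and 3.15% passed. Hbb, the blood marker tested, had a log2 fold change of 1.27 in ZF against ZL, from a ZL mean of 0.939. Its ZF and ZL groups were apart, as in 19.0% of all genes. Lists with 1 or 2 genes tested say little about their cell types.

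In ZF-SGLT2i against ZL, where 27.4% of all genes passed, 15.0% lower and 12.4% higher, markers of several cell types were called beside the transporters. Of the 10 proximal tubule markers 6 fell (Slc7a13, Slc5a1, Miox, Gatm, Slc34a1 and Lrp2) and Pck1 rose. Of the 6 collecting duct markers 4 rose (Aqp2, Aqp3, Scnn1g and Slc26a4), or 66.7%, and 0 fell. Of the 4 fibroblast markers 3 fell (Col3a1, Dcn and Pdgfra), or 75%. Of 5 tested injury markers 3 rose (Havcr1, Krt18 and Spp1) and Vcam1 fell, and of 5 podocyte markers 3 rose (Nphs1, Podxl and Synpo). In the thick limb and distal tubule list Slc12a3 rose and Umod fell, and 1 marker each rose in the macrophage (Cd14), liver (Serpina1) and inner medulla (Aqp4) lists. The part of these cell types in the transporter values of treated rats was not tested.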

How the data were processed

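RNA from the renal cortex of 12 rats (3 groups of 4) was depleted of ribosomal RNA, made into directional libraries and sequenced from both ends. The submitters' processing notes name Trimmomatic 0.38, RSEM 1.3.0, Bowtie2, edgeR and the build rn6. The deposited signal values are gene counts that the authors scaled to CPM with TMM factors, and replicates were not pooled. In every rat 100% of the values were whole multiples of the value of 1 read (tolerance 0.001), so whole reads were recovered by division. With few reads behind a value, its counting error is wide.

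Groups followed the sample labels. limma 3.58.1 (R 4.3.3) was fitted on log2(value + 1) to all 12 rats in 1 fit, with eBayes and its trend option, for the 11633 genes that reached 1 in 4 or more rats. Tests were two-sided, with Benjamini-Hochberg adjustment over all genes tested, and a call is an adjusted p under 0.05. Fold changes on this scale understate those of low genes. Exact permutation tests used 70 assignments. Members were read off the fit of the whole table. Members, lists and tests were chosen with earlier results of these data known. Named were a fixed set of renal transporters and, per class and comparison, the 8 called members with the largest change, 45 in all. The tests were checked on simulated data, but no outcome of that check is given or used here. Promoters and gene neighbours came from RefSeq (GRCr8), and alignments from Biopython 1.88. The alternatives included edgeR 4.0.16 and DESeq2 1.42.0 on the recovered reads. No 2 rats of a group were copies (chi-square per gene 5.63 to 52.5). Slc22a12 and Abcg2 were not used here, and a few genes are counted but not reported here by name.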

Additional observations from a re-analysis of the deposited data

Results flagged for a closer look

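In 43 named transporters, 129 groups of 4 rats were searched for a rat far from the other 3, by the gap to the nearest of the others over the whole range of the group, set against Dixon's critical value. There were 8 such rats, and chance alone gives about 1 in 20 groups, or 6.45. ZL rat 4 was far below the other ZL rats in 2 carriers: Slc22a6 (524.5, others 707 to 726) and Slc22a8 (484.3, others 824 to 878). In Slc47a1, ZL rat 2 (269.5, others 340 to 347) and ZF-SGLT2i rat 6 (168.8, others 241 to 248) were low. Slc16a14 was high in ZL rat 3 (213.7, others 156 to 160), and Abcc4 was high in ZF-SGLT2i rat 2 (185.2, others 154 to 158). Slc22a7 was high in ZF rat 2 (2.589, others 0 to 0.342), and Abcb1b was low in ZF-SGLT2i rat 6 (3.344, others 3.84 to 3.92).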

How the results depend on the processing

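The alternatives were another pseudocount, 2 filters, 2 scalings, a fit of the 2 groups alone, array quality weights, edgeR and DESeq2 on recovered reads, a term for the rat number, and each rat left out in turn. No called transporter changed direction in any of them. Of the called transporters, 7 of 30 in ZF against ZL, 1 of 5 in ZF-SGLT2i against ZF and 20 of 30 in ZF-SGLT2i against ZL passed in every alternative that tested them. Slc16a3 and Slco1a2, among these 20, were too low to be tested with the filter at a mean of 10. With 1 rat left out, transporters called in ZF against ZL ranged from 17 (without ZL rat 1) to 31 and genes from 1384 to 2453, in ZF-SGLT2i against ZF from 2 to 7 transporters and 176 to 569 genes, and in ZF-SGLT2i against ZL from 28 to 35 transporters and 2238 to 3302 genes. In ZF-SGLT2i against ZF, DESeq2 called 10 transporters and 641 genes, and array weights 8 and 689. The fit of the 2 groups alone called 24, 6 and 30 transporters and 1619, 477 and 3018 genes in the 3 comparisons. In ZF against ZL it ended 7 of the 30 calls: Abca2, Slc15a2, Slc22a22, Slc22a6, Slc22a7, Slco2b1 and Slco4c1 (adjusted p of 0.0506 to 0.108). With the rat number as a replicate block, 10, 2 and 20 transporters and 807, 223 and 1502 genes were called in the 3 comparisons. The sources used here do not say that the numbers pair rats. Deviations of same-numbered rats correlated between −0.376 and 0.253 in 9 pairs, and only 2 were over 0.1. So few pairs cannot settle whether same-numbered rats share anything. The numbers 1, 5 and 6 occur in 1 group each, so the block also takes ZL rat 1, ZF rat 5 and ZF-SGLT2i rat 6 out of the comparison. The cause of these shifts was not tested. edgeR on the recovered reads called 2177, 368 and 3216 genes. For the fixed renal transporters called in ZF against ZL, exact permutation p was 0.0286, the smallest possible, in Abca1, Abcg1, Slc16a1, Slc21a4, Slc22a6, Slco1a1 and Slco2a1. It was 0.0571 in Slc15a2, Slc22a2, Slc47a1 and Slco4c1, and 0.0857 in Slc15a1 and Slc22a7. Depth limits Slc22a7, Slco4a1, Slc16a3 and Abcb1b, which rest on few reads, and the 8 untested members.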
